A study of Homo sapiens with 4 samples.

Results

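The 10 genes described here encode amino acid transporters of the plasma membrane, and they were taken as a fixed list of symbols from the 60682 usable genes of the count table: SLC7A5, SLC3A2, SLC7A1, SLC7A6, SLC7A11, SLC1A4, SLC1A5, SLC38A1, SLC38A2 and SLC43A1. Each symbol matched 1 gene identifier, and all 10 genes passed the filter on low counts. They were measured by RNA-seq in JJN3, a cell line established from human multiple myeloma, a cancer of plasma cells. One group of 2 libraries came from cells transduced with an shRNA against WNK1 (shWNK1), and the other group of 2 came from cells transduced with the NS shRNA, the control. The labels distinguish no more than 1 WNK1 hairpin, whose sequence is not given in the sources used here, and they leave unsaid whether replicate libraries come from separate transductions.

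Cells take up most amino acids through solute carriers that work together. Sodium-coupled carriers such as SLC38A1 and SLC38A2 load the cell with small neutral amino acids, and exchangers such as SLC7A5 then trade these, above all glutamine, for essential amino acids such as leucine. Several exchangers of the SLC7 family reach the membrane only when bound to the heavy chain SLC3A2, also known as CD98. Plasma cells secrete protein and so draw heavily on this supply, and many of the genes are known targets of ATF4, the transcription factor of the amino acid response. WNK1 is a kinase that answers to chloride and cell volume, and SLC38A2 is known as a transporter gene induced when cells shrink in hypertonic medium.

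The libraries held 16973521 to 20164122 counts, and WNK1 itself stood at 18.6 and 19.6 CPM (counts brought to an equal library size with TMM factors) in shWNK1 and at 288 and 245 CPM in NS cells, 13.9-fold lower. All 7 plasma cell markers were measurable in both groups: 2 rose, SLAMF7 (11.7 CPM in shWNK1 and 1.502 CPM in NS) and PRDM1 (316 and 266 CPM), and 4 fell, namely SDC1 (86.7 and 217 CPM), IRF4 (742 and 872 CPM), XBP1 (243 and 273 CPM) and CD38 (7.38 and 11.2 CPM). TNFRSF17 (34.3 and 29.2 CPM) was not called. Of all genes tested 18.5% rose and 20.2% fell. The 4 markers of T or NK cells together reached at most 0.65 CPM and the 3 of myeloid cells at most 0.821 CPM. The epithelial adhesion gene EPCAM was present at 109 to 126 CPM. The 3 mature B cell markers summed to 2.98 to 3.21 CPM in shWNK1 and to 6.68 to 8.15 CPM in NS libraries, nearly all of it PAX5, and MS4A1 was at 0 counts in all 4. The part of these marker differences in the transporter values was not tested. In bulk RNA, a change in the number of cells of one kind and a change in RNA per cell cannot be told apart.

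Among the 10 transporters 2 transcripts rose in shWNK1 cells, 4 fell and 4 were not called. SLC38A2 rose 2.32-fold and SLC1A4 rose 1.41-fold. SLC43A1 fell 1.52-fold, and SLC7A5, its heavy chain SLC3A2 and SLC1A5 fell 1.12- to 1.14-fold. Over all 14864 genes tested 18.5% rose and 20.2% fell (adjusted p under 0.05 by the quasi-likelihood test of edgeR, with the adjustment of Benjamini and Hochberg). The share of the transporters that rose was near this background, and the share that fell was higher, a count of 4 that dropped to 1 without either shWNK1 library. The groups did not overlap for 8 of the 10 transporters, and the same held for 68.4% of all genes tested. The median log2 fold change (shWNK1 over NS, as throughout) of the 10 was -0.09, beside 0.01 over all genes tested. Against a fold change of 1.5 the rise of SLC38A2 was the one call left among the 10.

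**Figure D1:**
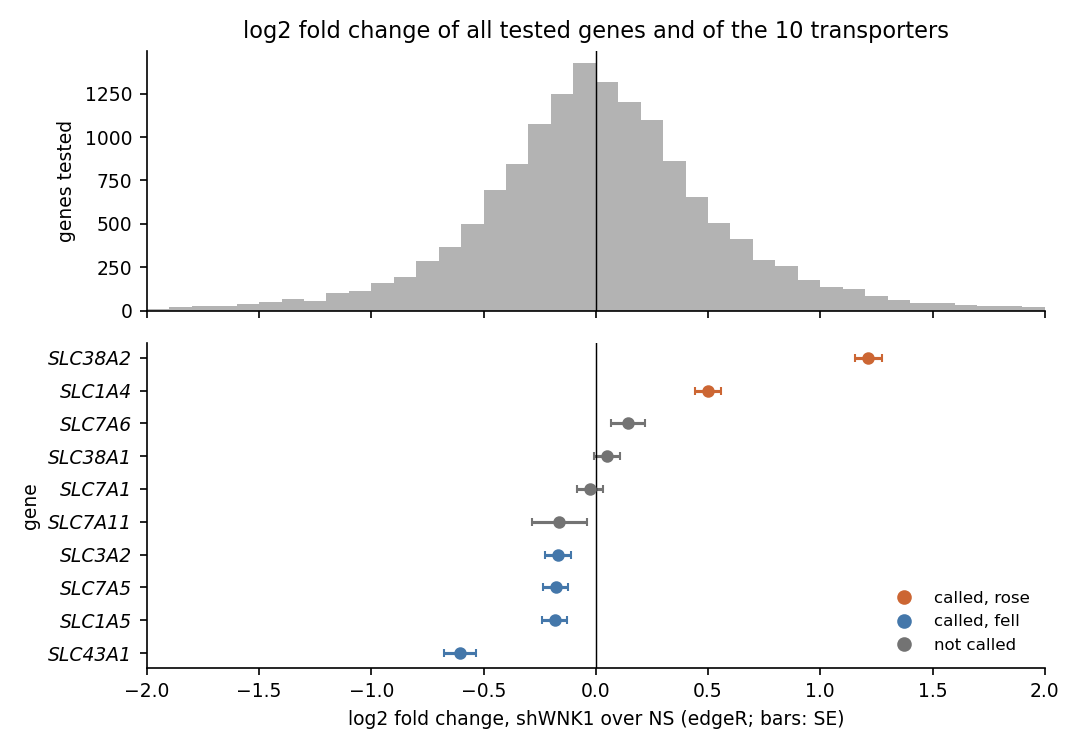
The upper panel counts all tested genes by log2 fold change (shWNK1 over NS, bins of 0.1; the 164 genes beyond 2 in either direction are outside the axis), and the lower panel gives the 10 transporters with their standard errors. SLC38A2 (1.21) and SLC1A4 (0.50) lie to the right, SLC43A1 (-0.61) to the left, and the other 7 within 0.20 of 0.

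Levels of different genes were compared per kilobase of exon (RPKM), since longer transcripts give more fragments. The length is that of all annotated exons of a gene, and which transcripts were expressed was not tested. In NS cells SLC7A5 was the most abundant of the 10 at 265 ± 3.38 RPKM (mean ± SD, n = 2), a level exceeded by 0.76% of the genes tested. SLC1A5 followed at 171 ± 2.34 RPKM and SLC3A2 at 83.1 ± 2.57 RPKM. The next genes were SLC38A1 (47.1 ± 1.68 RPKM) and SLC1A4 (46.7 ± 2.03 RPKM), whose library values overlapped, so that their order in NS cells is not set. SLC7A1 stood at 39.9 ± 1.10 RPKM, SLC43A1 at 34.6 ± 0.185 RPKM and SLC38A2 at 27.0 ± 1.17 RPKM. SLC7A6 (9.81 ± 0.137 RPKM) and SLC7A11 (2.42 ± 0.0987 RPKM) were the lowest, and 60.6% of the genes tested were above SLC7A11. Neighbours in this order other than SLC38A1 and SLC1A4 did not overlap between their 2 libraries. That check leaves out the exon lengths used, on which the order also depends. By mean CPM in NS cells, without regard to length, SLC38A1 (472 CPM) was above SLC3A2 (430 CPM). In the same way SLC38A2 (176 CPM) was above SLC43A1 (122 CPM).

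In shWNK1 cells the first 3 places and the last 2 were held by the same genes as in NS cells, and the middle of the order changed. SLC38A2 moved from rank 8 to rank 5 with 62.7 ± 0.582 RPKM, above SLC38A1 at 48.7 ± 0.727 RPKM. SLC1A4 reached 66.0 ± 2.36 RPKM at rank 4, just above SLC38A2, and the lower of its library values (64.4 RPKM) was higher than the higher one of SLC38A2 (63.1 RPKM). SLC43A1 stood at 22.7 ± 0.690 RPKM. These ranks too depend on exon length: by mean CPM in shWNK1 cells SLC38A1 (488 CPM) was above SLC1A4 (458 CPM) and SLC38A2 (408 CPM). Summed over the 10 genes the level was 704 and 719 RPKM in shWNK1 and 730 and 723 RPKM in NS libraries, and the genes took 0.390% (Wilson 95% interval 0.387 to 0.393) and 0.396% (0.393 to 0.398) of all counts in the shWNK1 libraries. In the NS libraries they took 0.370% (0.367 to 0.373) and 0.363% (0.360 to 0.366). These intervals cover counting error only. The shares are of plain library totals. After TMM scaling the 10 genes summed to 3796 and 3881 CPM in shWNK1 and to 3792 and 3729 CPM in NS libraries. The summed RPKM was lower in the shWNK1 libraries and the share of counts higher, so the direction depends on the measure.

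**Figure D2:**
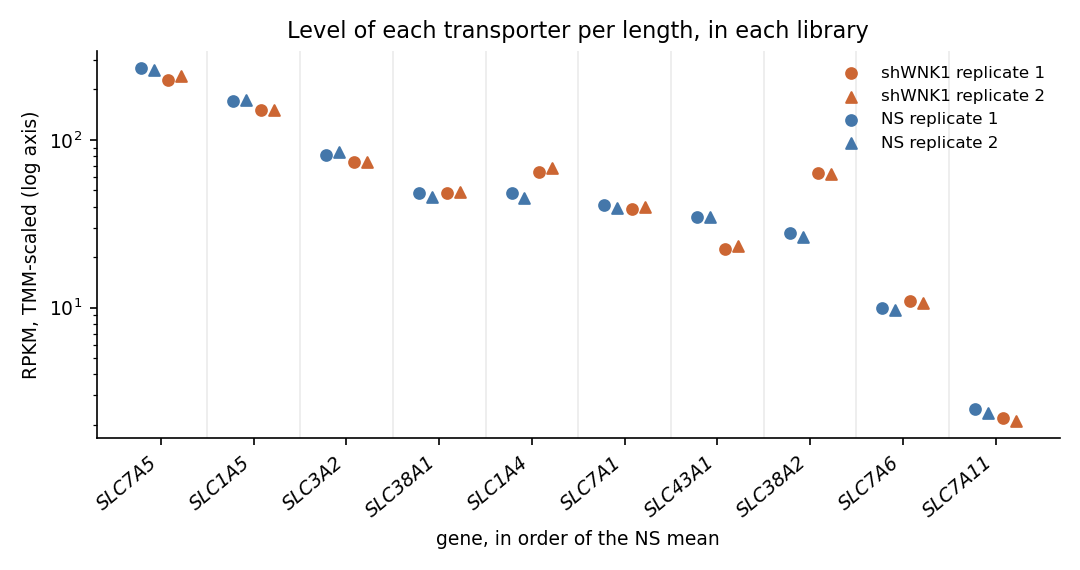
Each point is the RPKM of one transporter gene in one library on a log axis, with genes in order of their NS mean. The NS and shWNK1 points separate most for SLC38A2 (26.2 and 27.9 RPKM against 62.3 and 63.1 RPKM), and SLC7A5 is highest in all 4 libraries.

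Sodium-coupled uptake by system A was represented by SLC38A1 and SLC38A2, which lie beside each other on chromosome 12 and both carry alanine, serine and glutamine into the cell. SLC38A2 (ENSG00000134294, minus strand, 46358188 to 46372773, hg38) was at 411 and 405 CPM in shWNK1 and at 181 and 171 CPM in NS libraries. Both shWNK1 libraries were far above both NS libraries. The log2 fold change was 1.21 (SE 0.060, 95% interval 1.09 to 1.33, edgeR adjusted p = 4.2e-17), which placed the gene at rank 7 by p among the 2755 genes that rose. It ranged from 1.17 to 1.26 over the 13 alternative analyses and was called in each. SLC38A2 shares no exon bases with another listed gene. The antisense gene SLC38A2-AS1, named here after its values were seen, overlaps the start of the SLC38A2 locus without sharing exon bases and had 10 and 6 counts in shWNK1 and 0 and 0 counts in NS libraries. Strand was not used in counting, so these few fragments cannot be assigned to either strand.

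SLC38A1 (46183063 to 46270017, minus strand) was at 483 and 493 CPM in shWNK1 and at 484 and 460 CPM in NS libraries, and the value of NS replicate 1 lay between those of the shWNK1 libraries. Its log2 fold change was 0.05 (SE 0.057, edgeR adjusted p = 0.53), and the 95% interval of the fold change ran from 0.955 to 1.12. Within a library the ratio of SLC38A2 to SLC38A1 per kilobase was 1.31 and 1.26 in shWNK1 and 0.577 and 0.571 in NS cells. Per kilobase the pair thus changed order: SLC38A1 was higher in both NS libraries and SLC38A2 in both shWNK1 libraries. By CPM SLC38A1 was higher in all 4 libraries, with SLC38A2 at 411 and 405 CPM in shWNK1. The change of order therefore rests on the exon lengths used, 10015 bases for SLC38A1 and 6509 bases for SLC38A2. A ratio within a library does not depend on how libraries are scaled. With 2 libraries against 2, an exact permutation test (two-sided) on a ratio cannot give a p below 0.333, and none was used.

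The 3 genes whose profile over the 4 libraries was closest to that of SLC38A2, among 10367 genes with a symbol and at least 5 CPM, were TNFAIP3, HIVEP1 and ALPK1. Their distances (Euclidean, between log2 CPM values centred on each gene's mean) were 0.05, 0.06 and 0.07. TNFAIP3, which encodes a deubiquitinase, was at 204 and 199 CPM in shWNK1 and at 93.3 and 86.0 CPM in NS libraries. HIVEP1, which encodes a zinc finger protein, was at 112 CPM in both shWNK1 libraries and at 52.0 and 47.3 CPM in the NS libraries. This likeness rests on 4 libraries in 2 groups, and so describes little more than a shared fold change.

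The SLC1 family exchangers moved in opposite directions. SLC1A4 (ASCT1; chromosome 2, 64988477 to 65023865, plus strand), which exchanges serine, alanine and other small neutral amino acids, was at 447 and 470 CPM in shWNK1 and at 334 and 314 CPM in NS libraries. The groups were well apart, and the log2 fold change was 0.50 (SE 0.059, edgeR adjusted p = 2.5e-08). SLC1A5 (ASCT2; chromosome 19, 46774883 to 46788594, minus strand), a main route of glutamine into proliferating cells, was at 504 and 502 CPM in shWNK1 and at 565 and 576 CPM in NS libraries. All 4 values lay close together, with both shWNK1 libraries lower, and the log2 fold change was -0.18 (SE 0.056, edgeR adjusted p = 0.0089). That call ended without shWNK1 replicate 1 (adjusted p = 0.157) or shWNK1 replicate 2 (0.151), with log2 fold changes of -0.18 in both cases. The ratio of SLC1A4 to SLC1A5 per kilobase was 0.426 and 0.45 in shWNK1 and 0.284 and 0.262 in NS cells, a mean of 0.438 against 0.273. SLC1A5 remained the more abundant of the pair in all 4 libraries. Exons of SLC1A5 share 23.4% of their bases with the opposite-strand gene AC008622.2, which had 2 to 9 counts per library, and strand was not used in counting. The level of SLC1A5 per kilobase, and the ratio built on it, are uncertain for that reason.

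**Figure D3:**
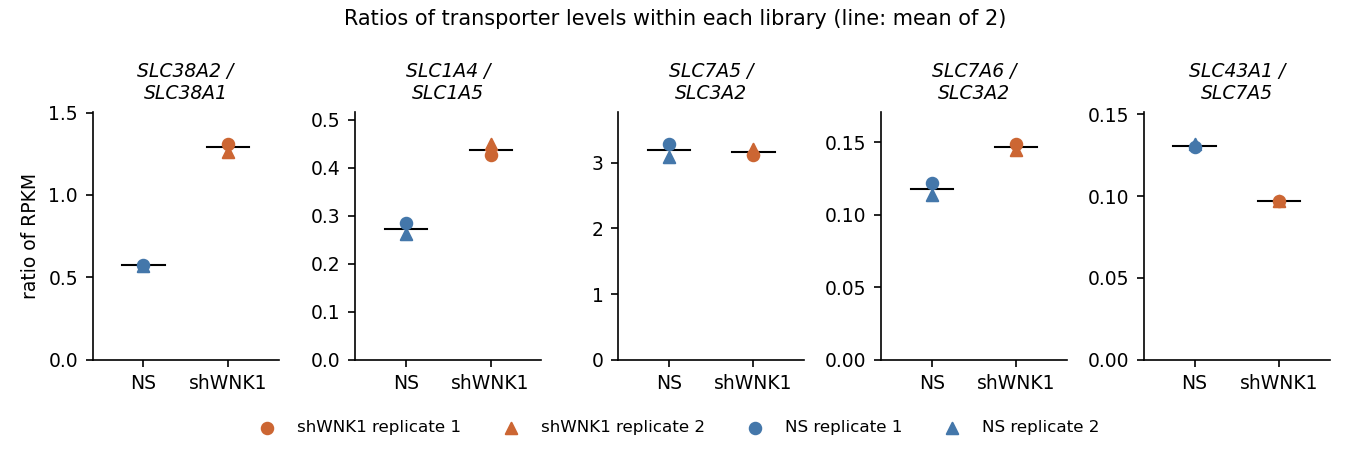
Each panel gives the ratio of 2 transporter genes in RPKM within each library, with a line at the mean of 2 libraries and axes that start at 0. The SLC38A2 to SLC38A1 ratio passes from 0.574 in NS to 1.29 in shWNK1, while the SLC7A5 to SLC3A2 ratio is 3.19 and 3.17.

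Of the heterodimeric exchangers, the heavy chain SLC3A2 and its partner SLC7A5 fell by similar small amounts. SLC7A5 (LAT1; chromosome 16, 87830023 to 87869507, minus strand), the main leucine and phenylalanine exchanger, was at 1092 and 1137 CPM in shWNK1 and at 1273 and 1250 CPM in NS libraries. SLC3A2 (chromosome 11, 62856102 to 62888875, plus strand) was at 380 and 385 CPM in shWNK1 and at 421 and 439 CPM in NS libraries. In both genes the shWNK1 libraries were the lower ones. The log2 fold changes were -0.18 for SLC7A5 (SE 0.055, edgeR adjusted p = 0.0099) and -0.17 for SLC3A2 (SE 0.057, edgeR adjusted p = 0.018).

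These calls were not stable. The SLC7A5 call ended without shWNK1 replicate 1 (adjusted p = 0.278) or replicate 2 (0.0949), and that of SLC3A2 ended without either (0.239 and 0.161) and with upper-quartile factors (0.0699). The ratio of SLC7A5 to SLC3A2 per kilobase was 3.12 and 3.21 in shWNK1 and 3.29 and 3.09 in NS libraries, with overlapping groups. SLC7A5 has partial copies elsewhere on chromosome 16, and reads that fit several places are lost to the mapping quality minimum: SLC7A5P1 had 50 to 100 counts per library and SLC7A5P2 had 0. Exons of SLC7A5 share 5.69% of their bases with AC126696.2.

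The other 2 light chains of SLC3A2 among the 10 genes, SLC7A6 and SLC7A11, were not called. SLC7A6 (y+LAT2; chromosome 16, 68264516 to 68301823, plus strand), which trades cationic amino acids for neutral ones and sodium, was at 82.8 and 81.5 CPM in shWNK1 and at 75.2 and 73.7 CPM in NS libraries. The shWNK1 libraries were the higher ones, with a log2 fold change of 0.14 (SE 0.076, edgeR adjusted p = 0.14) and a 95% interval of the fold change from 0.991 to 1.23. Exons of SLC7A6 share 44.4% of their bases with the opposite-strand gene SLC7A6OS, which had 221 to 289 counts per library. They share 11.1% with AC020978.9, also on the opposite strand, which had 22 to 38 counts. The level of SLC7A6 and its ratio to SLC3A2 are therefore uncertain. SLC7A11 (xCT; chromosome 4, 138164097 to 138242349, minus strand), the cystine and glutamate exchanger that supplies cysteine for glutathione, was the lowest of the 10, at 21.3 and 20.5 CPM in shWNK1 and at 24.0 and 22.7 CPM in NS libraries. Its log2 fold change was -0.16 (SE 0.123, edgeR adjusted p = 0.31), and the 95% interval of the fold change ran from 0.751 to 1.06. Its exons share 8.97% of their bases with SLC7A11-AS1, which had 7 to 16 counts per library. The ratio of SLC7A6 to SLC3A2 per kilobase was 0.147 ± 0.00287 in shWNK1 and 0.118 ± 0.00531 in NS cells, and that of SLC7A11 to SLC3A2 was 0.0293 ± 0.00103 and 0.0292 ± 0.00209 (mean ± SD, n = 2).

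The carriers that need no heavy chain also differed from each other. SLC43A1 (LAT3; chromosome 11, 57484534 to 57515780, minus strand), a facilitated carrier of branched-chain amino acids and phenylalanine, was at 78.5 and 81.9 CPM in shWNK1 and at 123 and 122 CPM in NS libraries. Replicates lay close together, and both shWNK1 values were below both NS values. The log2 fold change was -0.61 (SE 0.071, edgeR adjusted p = 2.6e-08), the largest fall among the 10, and rank 383 by p among the 3005 genes that fell. SLC7A1 (CAT1; chromosome 13, 29509414 to 29595688, minus strand), the main arginine and lysine carrier of most cells, was at 297 and 305 CPM in shWNK1 and at 313 and 301 CPM in NS libraries. Its groups overlapped, with a log2 fold change of -0.03 (SE 0.058, edgeR adjusted p = 0.77) and a 95% interval of the fold change from 0.905 to 1.07. Of the leucine carriers that fell, SLC43A1 was also lower relative to SLC7A5: their ratio per kilobase was 0.0971 and 0.0973 in shWNK1 and 0.130 and 0.132 in NS cells.

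Because many transporter genes are known to hold an amino acid response element, to which ATF4 binds with a C/EBP partner, the RefSeq promoter windows (GRCh38.p14, 250 bases before to 50 after each transcript start) were searched for its core, TGATGNAA, on both strands. The motif was chosen with these results known. The table holds 16 windows of 9 of the genes, and SLC7A11 is not in it. The 9 genes hold more windows per gene than all genes with a window do (35116 windows for 27305 genes). The core was present in 5 of the 16 windows, against 3.62% of all windows. By gene it was present in 5 of 9, against 4.46% of all genes with a window. The stretches that hold it are printed below, read 5′ to 3′ on the gene's strand, with the core in capitals. Where TTNCATCA is seen, the core lies on the other strand.

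SLC1A4, chr2:64989366-64989425, plus strand: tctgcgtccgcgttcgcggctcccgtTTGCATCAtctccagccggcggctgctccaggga
SLC3A2, chr11:62881710-62881748, plus strand: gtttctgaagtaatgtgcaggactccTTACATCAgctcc
SLC7A1, chr13:29595648-29595707, minus strand: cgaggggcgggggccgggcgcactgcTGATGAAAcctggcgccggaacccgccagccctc
SLC38A1, chr12:46266487-46266546, minus strand: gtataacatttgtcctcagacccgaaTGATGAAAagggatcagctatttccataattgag
SLC1A5, chr19:46784878-46784937, minus strand: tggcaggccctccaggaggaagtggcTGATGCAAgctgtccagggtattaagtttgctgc

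The genes with the core did not share a direction. SLC1A4 rose, SLC1A5 and SLC3A2 fell, and SLC7A1 and SLC38A1 were not called. In SLC1A4 the core spans a transcript start, from base -7 to base 1, in window 2 of the gene. The windows with the core in SLC1A4, SLC1A5, SLC3A2 and SLC38A1 lie at starts inside the gene as counted here, and that of SLC7A1 lies at its outer end. The 1 window of SLC38A2, the gene with the largest rise, does not hold these letters. Sequence outside the windows, such as introns farther into a gene, was not searched. The search therefore cannot say whether SLC38A2 holds the core elsewhere. A match or its absence in such a window says nothing about whether a factor binds the gene. That window, which lies at chr12:46372724-46373023 on the minus strand, is printed whole.

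SLC38A2: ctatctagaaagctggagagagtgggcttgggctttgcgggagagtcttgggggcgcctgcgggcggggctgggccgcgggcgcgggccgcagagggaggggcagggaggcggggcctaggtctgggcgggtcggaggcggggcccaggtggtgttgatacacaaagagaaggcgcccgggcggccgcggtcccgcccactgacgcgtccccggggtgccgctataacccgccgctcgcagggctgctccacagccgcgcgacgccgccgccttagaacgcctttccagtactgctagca

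The E-box CACGTG, the palindromic site to which MYC binds with MAX, was found in 3 of the 16 windows, against 7.26% of all windows. By gene it was found in 3 of 9, against 8.77% of all genes with a window. The 3 genes were SLC7A5, SLC1A5 and SLC43A1, which all fell in shWNK1 cells, and SLC3A2, the fourth gene that fell, had none. The E-box of SLC1A5 lies in window 2, at a start inside the gene as counted here, and window 1 had none. The calls of SLC7A5 and SLC1A5 were not stable, as given above. The search was made after the transporter calls. Stretches of the 3 genes are shown with the E-box in capitals.

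SLC43A1, chr11:57515783-57515840, minus strand: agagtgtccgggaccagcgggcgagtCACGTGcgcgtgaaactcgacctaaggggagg
SLC7A5, chr16:87869606-87869663, minus strand: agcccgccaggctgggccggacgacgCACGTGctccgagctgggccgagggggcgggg
SLC1A5, chr19:46787312-46787369, minus strand: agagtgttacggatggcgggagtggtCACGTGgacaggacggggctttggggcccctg

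The windows hold 43.3% to 82.0% G and C, and neither motif overlaps the other. Whether either motif bears on the changes was not tested.

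The 6-base word AGTATC was looked for in the longest annotated 3′ UTR of each transporter gene, a search chosen with earlier results of these data known. It was absent from the 3′ UTRs of all 4 transporters that fell (185 to 2950 bases long) and of both that rose (2722 and 2925 bases). It was present in 2 genes that were not called, SLC7A1 (once in 5073 bases) and SLC7A11 (at 2 places in 7862 bases). SLC38A1 (5910 bases) and SLC7A6 (5211 bases), also not called, lacked it. Among the 11493 tested genes whose 3′ UTR was searched, 23.2% held the word, with a median length of 1360 bases. The share of the transporters, 2 of 10, was near that, so the absence from the called genes is no result about them. The search did not cover all genes tested. The sites are shown with the word in capitals and at most 12 bases on each side.

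SLC7A1, from base 842 of the 3′ UTR: ggaacatgagacAGTATCtgcaggactggc
SLC7A11, from base 2433: tttctctttaaaAGTATCaatttaaaaggt
SLC7A11, from base 6271: agaatctatagtAGTATCaggatatatttt

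Factors known to act on these transporters were examined next. ATF4 mRNA was at 406 and 409 CPM in shWNK1 and at 305 and 323 CPM in NS libraries, 1.30-fold higher (log2 0.38, SE 0.058, edgeR adjusted p = 3.3e-06). EIF2AK4, which encodes the kinase GCN2 that senses uncharged tRNA upstream of ATF4, rose 1.17-fold (edgeR adjusted p = 0.014, and 0.308 without shWNK1 replicate 2). SGK1, a kinase that raises the surface level of several transporters, rose 3.56-fold from 6.27 to 22.3 CPM. MYC, a known activator of SLC1A5 and SLC7A5, fell 1.61-fold from 756 to 469 CPM (log2 -0.69, SE 0.057).

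CD44, whose protein stabilises SLC7A11 at the membrane, fell 2.02-fold from 119 to 59.1 CPM. LAPTM4B, which brings the SLC7A5 and SLC3A2 pair to lysosomes, fell 1.41-fold with an adjusted p of 0.045, which ended in 10 of the 13 alternatives. NFE2L2 and BACH1, the activator and the repressor of antioxidant genes such as SLC7A11, were not called (edgeR adjusted p = 0.19 and 0.38), but both were called as rising without NS replicate 1 (0.0389 and 0.000491). DDIT3 (4.37 CPM in shWNK1 and 3.44 CPM in NS) and the ubiquitin ligase NEDD4L (50.05 and 57.1 CPM) were not called, and NEDD4 had at most 2 counts in a library. In all, 3 of the 10 regulators tested rose, 3 fell and 4 were not called, where 18.5% of all genes tested rose and 20.2% fell.

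Most other amino acid transporters of the plasma membrane had few or no counts in this line. Of 31 listed, 10 could be tested and 21 were too low, 16 of them with 0 counts in all 4 libraries. Among the 10 tested, 3 rose, 5 fell and 2 were not called, with a median log2 fold change of -0.24. Over all genes tested 18.5% rose and 20.2% fell. Their summed level was 326 to 337 CPM in shWNK1 and 437 to 457 CPM in NS libraries. SLC38A5, a carrier of glutamine and other neutral amino acids from the same family as SLC38A2, was the most abundant of them and fell 1.53-fold, with 151 and 158 CPM in shWNK1 and 242 and 232 CPM in NS libraries (log2 -0.62, SE 0.062). SLC16A10, an aromatic amino acid carrier, fell 2.14-fold (log2 -1.10, SE 0.103), and the cationic carrier SLC7A2 fell 1.29-fold. Rises were those of the glycine carrier SLC6A9 (1.53-fold), of SLC7A7, another light chain of SLC3A2 (1.80-fold, to 15.1 and 12.3 CPM), and of SLC38A6 (1.59-fold). The SLC38A6 call ended with DESeq2 (adjusted p = 0.113), with limma-voom (0.0679), and without shWNK1 replicate 1 (0.562) or NS replicate 2 (0.111).

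Lysosomal amino acid transporters, which move amino acids between the lysosome and the cytosol, were split as well: of 7 tested, 3 rose, 3 fell and 1 was not called. The shares over all genes tested were 18.5% for rises and 20.2% for falls. SLC66A1, which exports cationic amino acids, rose 1.89-fold from 16.8 to 31.7 CPM. SLC38A9, the arginine sensor of the mTORC1 pathway, rose 1.22-fold and SLC38A7 rose 1.27-fold, calls that ended with DESeq2 (adjusted p = 0.0611 and 0.0888). They also ended when shWNK1 replicate 1 was left out (0.165 and 0.118), and likewise for shWNK1 replicate 2 (0.0786 and 0.163) and NS replicate 2 (0.0822 and 0.168). SLC36A1 fell 1.51-fold, SLC15A4 fell 1.45-fold and MFSD12 fell 1.22-fold.

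**Figure D4:**
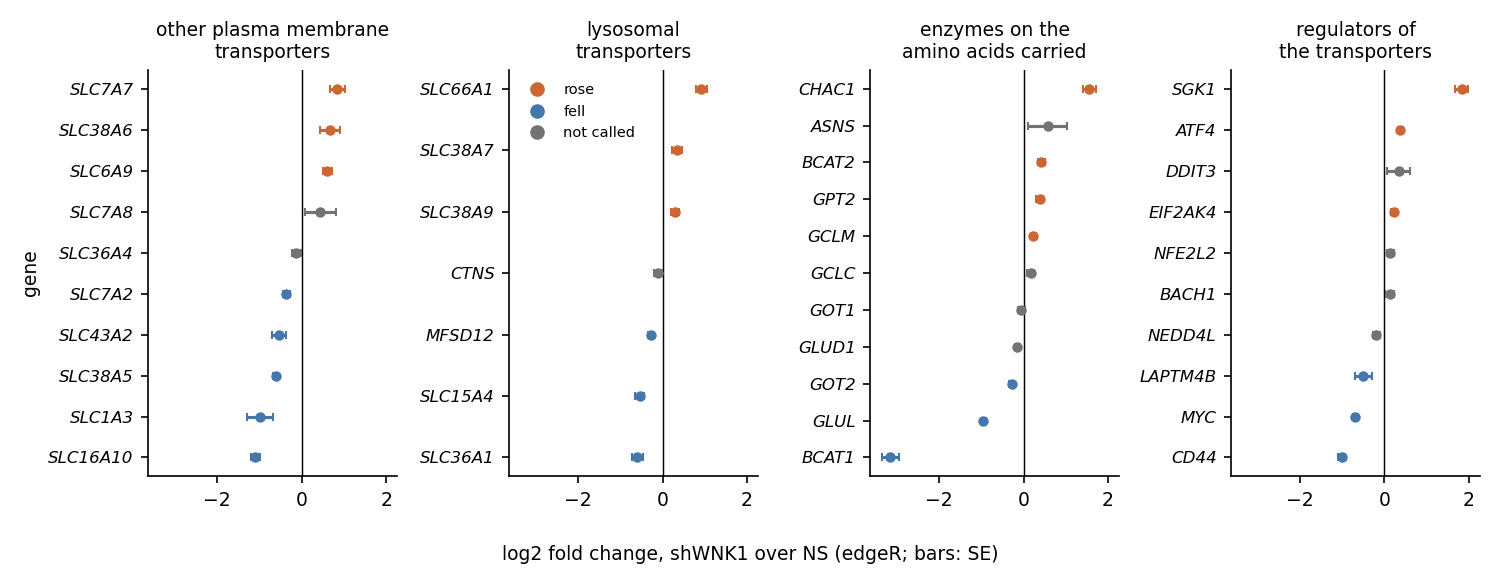
Points give the log2 fold change (shWNK1 over NS) with its standard error for the tested genes of 4 lists, coloured by call. Each list holds rises and falls. BCAT1 (-3.15) and SGK1 (1.83) lie farthest from 0.

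Enzymes that act on the amino acids carried changed in both directions: of 11 tested, 4 rose, 3 fell and 4 were not called. Of all genes tested 18.5% rose and 20.2% fell. BCAT1, the cytosolic branched-chain transaminase, fell 8.89-fold to 2.17 CPM, and its mitochondrial counterpart BCAT2 rose 1.34-fold to 87.3 CPM. GLUL, the glutamine synthetase, fell 1.93-fold from 302 to 156 CPM (log2 -0.95, SE 0.060). The aspartate transaminase GOT2 fell 1.21-fold. CHAC1, a glutathione-degrading enzyme and ATF4 target, rose 2.95-fold, and the alanine transaminase GPT2 rose 1.30-fold. ASNS, the asparagine synthetase and another ATF4 target, singled out after its values were seen, was at 1.83 and 2.09 CPM in shWNK1 and at 1.82 and 0.83 CPM in NS libraries, lower than each of the 10 transporters.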

How the data were processed

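RNA-seq counts of 2 shWNK1 and 2 NS libraries of JJN3 cells were used. The authors deposited raw counts per gene, made with featureCounts v2.0.0 on GENCODE v34, per the file headers: paired reads were counted as fragments without regard to strand (setting 0), if mapping quality was 20 or more, both mates were mapped and the pair was not chimeric. Trimmomatic, STAR and hg38 are named in the submitters' processing notes. Of 60728 genes, 1 was broken over 3 lines and 45 Y copies with 0 counts were left out, leaving 60682. The 3 counts that a count of 0 allows correspond to 0.149 to 0.177 CPM.

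Counts were tested in R 4.3.3 with edgeR 4.0.16 (filterByExpr, 14864 genes; TMM; robust glmQLFit and glmQLFTest, two-sided, 2 residual degrees of freedom), with Benjamini-Hochberg adjustment over all genes tested and calls at adjusted p under 0.05. The code was tested on simulated data. Standard errors are those the F statistic gives, and intervals of fold changes are 95% intervals from the same fit. RPKM are TMM-scaled CPM per kilobase of the deposited exon length. The spread behind the p-values is that between these 4 libraries and may be no more than technical. For each gene the fit moderates it with the spread of all genes tested. The p-values and intervals therefore rest on more than the 2 residual degrees of freedom of a gene. The replicates differed by a chi-square of 2.94 (shWNK1) and 5.76 (NS) per degree of freedom, so none is a duplicate.

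All 10 transporters were named whatever their result; of other lists, up to 3 called genes in each direction by smallest p, and all regulators. The enzyme list was used without 1 gene, which is not reported here. Cell type markers serve as a check, and their values are given outside that rule. The members and lists were chosen with earlier results of these data known. Alternatives were DESeq2 1.42.0, limma-voom 3.58.1, other scaling factors and filters, the replicate number as a block, a test against a 1.5-fold change, leaving out immunoglobulin and mitochondrially encoded genes, and leaving out each library, where the lone library is assumed to vary like the other group. Promoter sequences came from RefSeq (GRCh38.p14) and 3′ UTRs from GENCODE v29.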

Additional observations from a re-analysis of the deposited data

How the results depend on the processing

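The number of transporters that rose (2) was kept in 12 of the 13 alternatives and was 1 against a fold change of 1.5. The number that fell (4) was kept with DESeq2, limma-voom, RLE factors, both other filters, the replicate block and without immunoglobulin and mitochondrially encoded genes, was 3 with upper-quartile factors, 0 against a fold change of 1.5, and 1 to 4 when a library was left out (1 without either shWNK1 replicate). The other plasma membrane transporters called (8) numbered 1 against a fold change of 1.5, 6 to 8 elsewhere, and 6 to 7 with a library left out. Among the 10 transporters no log2 fold change that was called changed sign. With the replicate number as a block 2 members rose and 4 fell. The labels do not say that a number marks a shared culture, and the same-numbered libraries' deviations correlated at 0.0185 over genes. The block ended no call among the members. Among the other transporters, enzymes and regulators named it ended that of LAPTM4B (edgeR adjusted p = 0.0557). The cell type markers were not put through the alternatives. Of the 20 member levels per length, plain library totals moved 10 by more than 1 SD and none by over 2.78%. Upper-quartile factors moved the median log2 of all genes to 0.04. Counting error is small at these depths for all members except SLC7A11 (371 to 421 counts).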
